A study of Mus musculus with 4 samples.

Results

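Mature and type 2 dendritic cells of the mouse mammary gland were examined in 3 single-cell RNA libraries. The cells were chosen by counts of unique molecular identifiers (UMIs), each of which stands for 1 captured transcript. A barcode with 500 or more genes and at most 10% mitochondrial UMIs was kept. It entered the dendritic gate with 3 or more UMIs of H2-Aa and H2-Ab1 together, 0 UMIs of Epcam, Cd3e, Cd79a, Xcr1 and Clec9a, and under 0.05% of UMIs in the 3 C1q genes. Within the gate, 2 or more UMIs of Fscn1 and Ccr7 together marked a mature cell, and 2 or more UMIs of Cd209a marked a type 2 cell. These gave 284 cells of 9073 kept barcodes, of which 244 were mature, 32 were type 2 and 8 passed both thresholds and were set apart.

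The donors were female mice of mixed background whose floxed Trp53 and Brca1 and the R26Y reporter (a stop cassette before YFP) were recombined by an adenovirus carrying Cre under a keratin 8 promoter (Ad-K8-Cre), injected into the mammary ducts. The genotype is given as Trp53L/L;Brca1L/L;R26Y and is shared by every library, so no library without the deletions was compared. The tumour libraries, tumour 1 and tumour 2, hold live (DAPI-) cells sorted from 2 mammary tumours that arose after the injection. The 5 months library holds YFP+ epithelial cells and CD45+ leukocytes sorted at that time. The recombination is aimed at keratin 8 luminal cells, and leukocytes are not its target. How many mice gave each library, and in what ratio the sorted cells of the 5 months library were mixed, is not stated in the sources used here. A further library from 2 weeks after injection is described under the closing observations.

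Conventional type 2 dendritic cells sample antigen in tissue with C-type lectins such as CD209a and MGL2 and present it to CD4+ T cells. A dendritic cell of any origin that takes up a maturation signal changes state: it makes CCR7, the receptor that guides it along CCL21 and CCL19 to the lymph node, and fascin (Fscn1), which bundles actin. Maturation is known to raise costimulatory molecules, non-canonical NF-kB genes and chemokines for T cells, and to switch off new synthesis of MHC class II while loaded complexes stay on the surface. CCL22 and CCL17 attract CCR4+ cells, regulatory T cells among them, and CCL5 attracts T cells and other leukocytes.

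At 5 months, 191 cells were mature, 32 were type 2 and 5 were both, of 470 in the gate and 4668 kept. Tumour 1 gave 34 mature, 0 type 2 and 2 cells past both thresholds of 2640 kept, and tumour 2 gave 19, 0 and 1 of 1765. A count of 0, with 3 counts taken as its limit, allows type 2 shares of up to 0.114% of tumour 1 and 0.17% of tumour 2, against 0.686% measured at 5 months (exact Clopper-Pearson 95% interval 0.469 to 0.966). Mature cells made up 1.29% of kept barcodes in tumour 1 (0.893 to 1.80) and 1.08% in tumour 2 (0.649 to 1.68), against 4.09% at 5 months (3.54 to 4.70). Of the mature and type 2 cells together, 100% were mature in tumour 1 (89.7 to 100) and in tumour 2 (82.4 to 100), against 85.7% at 5 months (80.4 to 90.0). These mature shares and intervals count every cell past the threshold. A Ccr7 UMI was seen in only 9 of the 34 in tumour 1 and 13 of the 19 in tumour 2, against 188 of 191 at 5 months. The other tumour cells passed on Fscn1 alone, and the next paragraph describes them. Intervals and limits here cover counting error only. The tumours and the 5 months library were sorted by different gates, which cannot be told apart from a change in these shares. Shared barcodes were few: 16 between 5 months and tumour 1, 10 between 5 months and tumour 2 and 7 between the tumours, with no cell a member in both libraries of a pair.

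The labels held for only some cells of each gate, so "mature" and "type 2" below name the gates. At 5 months, the 18 mature markers that the rule did not use summed to 14895 CPM (UMIs of a gene, scaled to the same total in every sum) in 123 mature-gate cells with both Fscn1 and Ccr7. They summed to 2415 CPM in 65 cells with Ccr7 alone, against 2910 CPM in the type 2 gate. The type 2 sum leans on a single barcode, which held all 187 Ccl17 UMIs of that gate. Of the 18 markers, 16 had a UMI in the 65 cells and 11 in the type 2 gate. In the type 2 gate, 12 of 32 cells carried Siglech, a lectin of plasmacytoid dendritic cells. The 10 plasmacytoid markers summed to 9727 CPM in those 12 and 242 CPM in the other 20. Siglech itself is among the 10, and its absence from the other 20 cells follows from the split. In the tumours, many cells of the mature gate lacked Ccr7. Ccr7 was seen in 9 of 34 mature-gate cells in tumour 1 and 13 of 19 in tumour 2, against 188 of 191 at 5 months. The other 25 cells of tumour 1 and 6 of tumour 2 passed on Fscn1 alone. They held a median of 28003 UMIs in tumour 1 and 17824.5 in tumour 2, where the Ccr7+ cells held 5936 and 6256. Of these Fscn1-only cells, 24 of 25 and 6 of 6 had a UMI of Cdkn2a or Col1a1, and 5 of 25 and 1 of 6 had one of Ptprc, which encodes CD45. Ptprc was missed in many Ccr7+ cells too, with a UMI in 2 of 9 in tumour 1, 8 of 13 in tumour 2 and 83 of 188 at 5 months. Cd74, the MHC class II chaperone, stood at 108 and 66.3 CPM in the Fscn1-only cells, against 29962 and 16426 CPM in the Ccr7+ cells of the same tumours. The summed level of 9 fibroblast or endothelial markers was 6596 and 3144 CPM in the Fscn1-only cells, against 75.2 and 22.6 CPM in the Ccr7+ cells. These tumour cells are called Fscn1-only cells below.

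**Figure D1:**
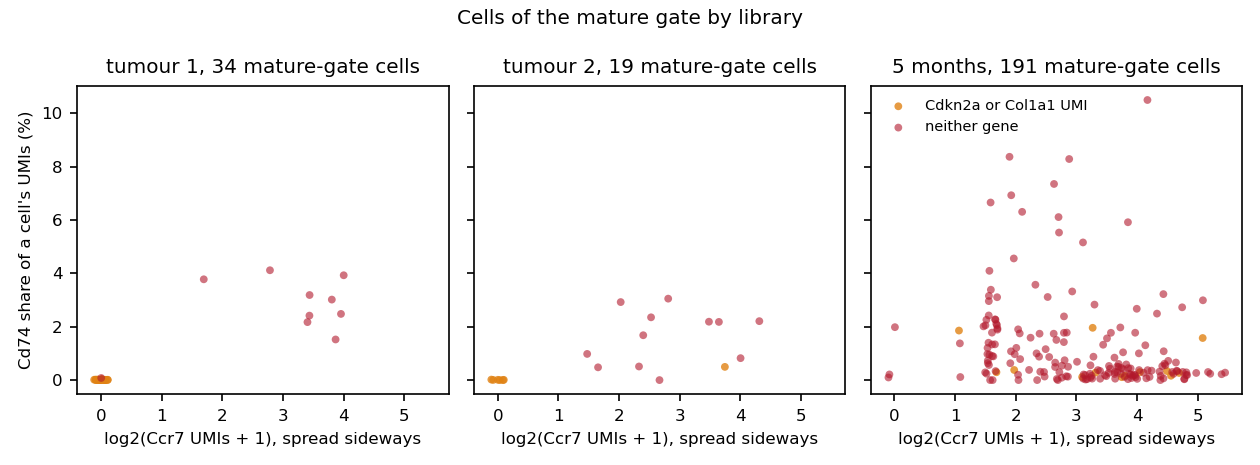
Each point is a cell of the mature gate in tumour 1 (34 cells), tumour 2 (19) and 5 months (191). The horizontal axis gives log2(Ccr7 UMIs + 1), moved sideways at random by a small amount, and the vertical axis the share of the cell's UMIs in Cd74. Cells with 0 Ccr7 UMIs in the tumours lie at the bottom, and nearly all of them carry a Cdkn2a or Col1a1 UMI (orange).

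The counts of the rule's own genes are a description. Fscn1 stood at 1403 CPM in mature cells (median 2, highest 45 UMIs a cell), against 0 UMIs in type 2 cells. Ccr7 stood at 3154 CPM in mature cells (median 8, highest 42 UMIs), against 45.1 CPM in type 2 cells (highest 1 UMI). Cd209a stood at 17.6 CPM in mature cells, against 963 CPM in type 2 cells (median 3, highest 16 UMIs). Free RNA sets a floor to such counts. Fscn1 had a UMI in 66.0% of mature cells (median 3025 UMIs a cell), against 2.45% of T cells (2244) and 3.68% of B cells (2187), and Cd209a in 100% of type 2 cells (3795.5), against 2.00% and 0.702%. Ccr7 had a UMI in 98.4% of mature cells, but naive T and B cells use this receptor too. Of all T and B cells, naive or not, 51.7% and 58.9% had one.

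The thresholds cut through a gradient. At 5 months, 49 cells lay just outside the mature threshold with 1 UMI of Fscn1 and Ccr7, and 32 just inside it with 2. Ccl5 stood at 214 CPM in the 49 and 176 CPM in the 32, and at 6840 CPM in 29 cells with 3 to 5 UMIs and 32579 CPM in 130 cells with more than 5. Ccl22 followed the same order, with 0 UMIs at 1 and 2, then 112 and 748 CPM. The 32 cells just inside thus carried the chemokine levels of the cells just outside. For type 2 cells, 16 lay just outside with 1 Cd209a UMI, 15 just inside with 2 and 17 above. Siglech stood at 921 CPM at 1, 779 CPM at 2 and 373 CPM above.

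With type 2 cells in 1 library alone, mature and type 2 cells could be compared only within the 5 months library, with no replicate and no test. Each class was summed (624322 UMIs in mature and 132981 UMIs in type 2 cells), so that 1 UMI is worth 1.60 CPM in mature and 7.52 CPM in type 2 cells. A gene was counted as different when it reached 20 CPM in the higher class and differed by 2-fold or more after 1 CPM was added to both. Of 5434 genes that reached 20 CPM, 2030 did so (37.4%), 831 higher in mature cells (15.3%) and 1199 lower (22.1%). Sampling of few UMIs gives many such folds, so the genes whose 95% Poisson intervals also lay apart were counted separately: 221 higher in mature cells (4.07%) and 350 lower (6.44%). The median log2 ratio of all 5434 was -0.23, and with factors from the trimmed mean of M values it was -0.08, with 1039 genes higher and 1037 lower. Without the highest cell of each gene in each class, 1082 were higher and 871 lower, so the balance between directions turned. The counts below are of genes whose intervals lay apart. These intervals cover counting error and not the spread between cells, so a gene counted in 1 barcode can pass. S100a9 passed in this way, with 927 UMIs in a single type 2 barcode.

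Mature cells were led by Ccl5. It had 15084 UMIs in 140 of 191 mature cells, against 23 UMIs in 10 of 32 type 2 cells, which is 24161 against 173 CPM. Of the 20 listed mature markers, 2 were used to choose the cells and 17 others reached 20 CPM. Of those, 15 were higher in mature cells and 1 lower, with a median log2 ratio of 4.79. The 12 genes with the largest ratios were Zmynd15, Serpinb6b, Il12b, Fxyd2, Birc2, Cacnb3, Socs2, Ccser2, Ccl5, Nudt17, Tbc1d4 and Mreg. Zmynd15 had 284 UMIs in 79 mature cells and none in type 2 cells, at least 20.2-fold higher when 3 UMIs over the class are taken as the limit. Serpinb6b, a serpin, had 245 UMIs in 82 mature cells and none in type 2 cells (at least 17.4-fold). Il12b, the p40 chain of interleukin-12 and interleukin-23, had 166 UMIs in 51 mature cells and none in type 2 cells (at least 11.8-fold). Tbc1d4, a Rab GTPase-activating protein, had 610 UMIs in 131 mature cells, against 1 UMI in type 2 cells.

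Epsti1, Tmem123, Cd63 and Samsn1 each had UMIs in more than 100 of the 191 mature cells. Epsti1 stood at 1277 CPM in mature and 45.1 CPM in type 2 cells, and Tmem123 at 1840.4 and 226 CPM. Cd63, a tetraspanin of late endosomes, stood at 1377 and 52.6 CPM, and Samsn1, an adaptor, at 945 and 203 CPM. Cacnb3, a calcium channel subunit, had 137 UMIs in 73 mature cells and none in type 2 cells, and a UMI in 0.668% of T cells and 0.526% of B cells. Socs2, an inhibitor of cytokine signalling, had 119 UMIs in 61 mature cells and none in type 2 cells. Il4i1, an enzyme that degrades phenylalanine, stood at 264 CPM in mature cells, against 1 UMI in type 2 cells. Apol7c, an apolipoprotein L, had 57 UMIs in mature cells and none in type 2 cells, and the intervals lay apart for all of these genes.

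**Figure D2:**
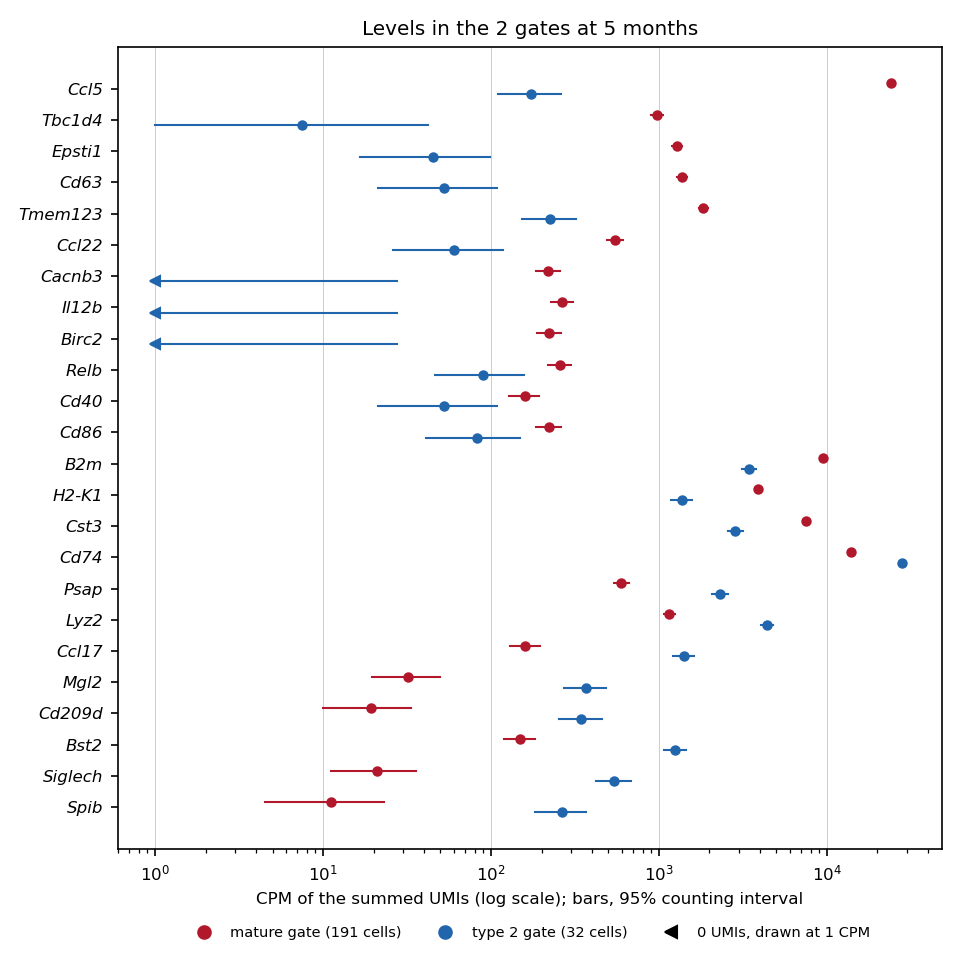
Summed level (CPM, log scale) of 24 genes in the mature gate (red, 191 cells) and the type 2 gate (blue, 32 cells) at 5 months, with 95% Poisson intervals. The intervals of the 2 gates lie apart for each gene drawn; Ccl5 stands at 24161 CPM in mature and 173 CPM in type 2 cells, and Cd74 at 13914 and 28124 CPM.

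Among 13 chemokine genes that reached 20 CPM, 5 were higher in mature cells and 4 lower. Ccl22 stood at 548 CPM in mature cells, with UMIs in 74 of 191 (highest 28), against 60.2 CPM in type 2 cells, with UMIs in 3 of 32 (highest 6). Cxcl16, the membrane chemokine for CXCR6+ cells, stood at 844 and 256 CPM. Ccl17 ran the other way in the sums, 160.2 CPM in mature and 1406 CPM in type 2 cells, but all 187 type 2 UMIs came from 1 cell, against 25 of 191 mature cells with a UMI. Without the highest cell of each class, Ccl17 had no UMI in type 2 cells. Ccl9 stood at 67.3 CPM in mature and 331 CPM in type 2 cells, where 16 of 32 had a UMI, and Ccl4 at 11.2 and 226 CPM. Both are monocyte and macrophage chemokines.

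Of 13 receptors for migration, 2 were higher in mature cells and 2 lower. Cxcr4, the CXCL12 receptor, stood at 208 CPM in mature and 30.1 CPM in type 2 cells, and Ptger4, a prostaglandin E2 receptor known to aid migration of mature dendritic cells, at 130 and 22.6 CPM. Ccr2, the receptor that brings monocytes into tissue, stood at 40.0 CPM in mature and 203 CPM in type 2 cells. Of 19 cytoskeleton and motility genes, 3 were higher and 2 lower. Swap70, which binds actin, stood at 128 and 15.0 CPM, and Marcks, a membrane and actin crosslinker, at 905 and 301 CPM.

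NF-kB genes leaned to the mature cells, with 6 of 16 higher and 1 lower and a median log2 ratio of 0.93. Relb, the partner of p52 in the non-canonical arm, stood at 256 CPM in mature and 90.2 CPM in type 2 cells. Nfkb2, the p52 precursor, stood at 125 and 37.6 CPM, and Map3k14, the kinase that starts its processing, at 149 and 45.1 CPM. Traf3, which holds that kinase in check, had UMIs in 34 mature and 0 type 2 cells, at 59.3 CPM in mature cells. Nfkbib and Rel were higher too, so the higher genes were not those of the non-canonical arm alone. Nfkbib stood at 296 CPM in mature and 67.7 CPM in type 2 cells, and Rel at 826 and 391 CPM. Nfkbiz, an atypical inhibitor, was the gene that ran lower, at 60.9 and 180.5 CPM. Survival genes went 4 higher and 1 lower of 11. Birc2, a ubiquitin ligase of the same pathway, had 139 UMIs in 88 mature cells and none in type 2 cells (at least 9.87-fold), and Birc3 stood at 157 and 52.6 CPM. Bcl2l11, which encodes the death protein BIM, stood at 48.1 CPM in mature and 211 CPM in type 2 cells.

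The class I presentation genes leaned to the mature cells, with 7 of 14 higher in mature cells, 0 lower and a median log2 ratio of 1.15, against -0.23 over all genes. B2m, the light chain, stood at 9493 CPM in mature and 3437 CPM in type 2 cells, with UMIs in every cell of both. H2-K1, a classical heavy chain, stood at 3918 and 1369 CPM, and H2-Q7, a non-classical one, at 298 and 90.2 CPM. Reads of these related heavy chains may be split between copies. Psme2, a proteasome activator subunit, stood at 867 and 196 CPM. Class II presentation and processing genes were mixed, with 1 of 16 higher, 5 lower and a median log2 ratio of -0.28, against -0.23 over all genes. The 1 higher was Lamp1, at 479 CPM in mature and 196 CPM in type 2 cells. The 5 lower were Cd74, H2-DMa, H2-DMb1, Ctsb and Ctsd. Cd74 stood at 13914 CPM in mature and 28124 CPM in type 2 cells. H2-DMa and H2-DMb1, which load peptide, stood at 218 and 120 CPM in mature cells, against 812 and 564 CPM in type 2 cells. Ctsb and Ctsd, lysosomal proteases, stood at 205 and 38.4 CPM in mature cells, against 639 and 188 CPM in type 2 cells. H2-Eb1 leaned to mature cells, 346 against 211 CPM, within the intervals. Ciita, the class II transactivator, had 0 UMIs in mature and 3 UMIs in type 2 cells.

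The promoter windows of 2 class I and 2 NF-kB genes from these groups are shown because both groups contain known targets of NF-kB. Windows run from 250 bases before to 50 after a gene's start (RefSeq, GRCm38.p6), and capitals mark matches to the kappa-B consensus on either strand. Of 27025 genes with a window, 9.55% held a match, as did 4 of 12 class I genes, 8 of 12 NF-kB genes, 4 of 10 chemokines, 1 of 15 mature markers and 2 of 12 type 2 markers with a window. Matches in a window can overlap. A match is a description of the letters and not evidence of binding.
H2-K1, chr17:34000284-34000583, minus strand: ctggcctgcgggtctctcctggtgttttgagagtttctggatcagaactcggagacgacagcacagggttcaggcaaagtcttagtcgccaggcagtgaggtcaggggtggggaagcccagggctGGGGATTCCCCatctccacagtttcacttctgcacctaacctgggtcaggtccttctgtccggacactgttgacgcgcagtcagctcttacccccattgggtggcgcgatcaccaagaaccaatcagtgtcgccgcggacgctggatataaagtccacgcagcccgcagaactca
B2m, chr2:122147437-122147736, plus strand: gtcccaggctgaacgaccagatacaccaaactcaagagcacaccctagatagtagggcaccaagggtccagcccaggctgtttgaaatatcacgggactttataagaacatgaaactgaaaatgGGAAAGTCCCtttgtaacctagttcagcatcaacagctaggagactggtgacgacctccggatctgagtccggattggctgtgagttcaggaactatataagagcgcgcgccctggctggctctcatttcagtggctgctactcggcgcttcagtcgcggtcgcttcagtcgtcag
Nfkb2, chr19:46304487-46304786, plus strand: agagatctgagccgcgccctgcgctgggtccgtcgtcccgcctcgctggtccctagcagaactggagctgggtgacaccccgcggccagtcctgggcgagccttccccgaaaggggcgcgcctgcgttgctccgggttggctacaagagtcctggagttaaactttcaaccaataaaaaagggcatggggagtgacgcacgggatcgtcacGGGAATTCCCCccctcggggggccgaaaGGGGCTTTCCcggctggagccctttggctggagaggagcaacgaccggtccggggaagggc
Traf3, chr12:111166120-111166419, plus strand: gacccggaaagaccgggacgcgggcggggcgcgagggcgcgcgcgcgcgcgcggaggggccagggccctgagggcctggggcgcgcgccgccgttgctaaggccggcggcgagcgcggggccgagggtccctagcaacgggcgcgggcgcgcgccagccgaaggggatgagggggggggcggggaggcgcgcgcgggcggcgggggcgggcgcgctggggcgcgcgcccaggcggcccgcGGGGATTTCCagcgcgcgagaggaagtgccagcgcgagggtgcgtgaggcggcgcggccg

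Costimulation genes were 4 higher and 1 lower of 9. Cd40 stood at 159 CPM in mature and 52.6 CPM in type 2 cells, Cd86 at 221 and 82.7 CPM, and Tnfrsf9 at 152 and 30.1 CPM. Cd83, a surface marker of activation, stood at 700.0 and 399 CPM, a ratio under 2-fold. Of 15 cytokine and receptor genes, 3 were higher and 0 lower. Il15ra, which presents interleukin-15 to T and NK cells, had 60 UMIs in 45 mature cells and none in type 2 cells. Il15 itself stood at 48.1 and 7.52 CPM, within the intervals. Immune regulatory genes were 3 higher and 0 lower of 13. Cd274, which encodes PD-L1, stood at 60.9 and 37.6 CPM and did not reach 2-fold.

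Among the listed genes of uptake and degradation, most that differed were higher in type 2 cells. Of 12 type 2 markers other than Cd209a, 0 were higher in mature cells and 6 lower, with a median log2 ratio of -1.97. Summed over the 15 measured, type 2 markers stood at 2041 CPM in the 12 gate cells with Siglech and 2324 CPM in the 20 without. As a sum, this list thus did not set the plasmacytoid-marked part of the gate apart. Of 10 lectin and scavenger receptors, 1 was higher in mature cells and 6 lower. Cd209d, a neighbour of Cd209a, stood at 19.2 CPM in mature and 346 CPM in type 2 cells, with UMIs in 20 of 32 type 2 cells; reads of the 2 related genes may be shared. Mgl2, a lectin for galactose-type sugars, stood at 32.0 and 368 CPM, with UMIs in 9 of 191 mature and 10 of 32 type 2 cells. Clec12a, an inhibitory lectin receptor, stood at 25.6 and 188 CPM. Ly75, which encodes the endocytic receptor DEC-205, was the exception, with 69 UMIs in 49 mature cells and none in type 2 cells. Of 16 lysosome and phagocytosis genes, 1 was higher in mature cells and 9 lower. Fc and complement receptors went 0 higher and 3 lower of 8, pattern recognition receptors 0 and 2 of 7, and genes of S phase and mitosis 0 and 5 of 13. Of those 5, Birc5, Ccnb2 and Ube2c rested on 3, 2 and 3 type 2 cells, while Cenpa and Hmgb2 each had UMIs in 21. Lyz2, lysozyme, stood at 1152 and 4399 CPM, Psap, a lysosomal lipid-hydrolysis cofactor, at 596 and 2316 CPM, and Grn, progranulin, at 57.7 and 572 CPM. Cst3, a cathepsin inhibitor, was the one higher in mature cells, at 7515 and 2858 CPM.

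The 12 smallest ratios rested mostly on single type 2 barcodes. S100a8, S100a9, Ngp, Chil3, Wfdc21 and G0s2 came from 1 barcode each, and 1 barcode held 681 of 682 UMIs of Camp, 61 of 62 of Lcn2 and 19 of 20 of Ifng. S100a9 had 927 UMIs in a single type 2 barcode and 2 UMIs in mature cells. That barcode also carried Siglech. Without it, S100a8, S100a9, Ngp and Chil3 had 0 UMIs in type 2 cells. Klk1, Cox6a2 and Klra17 were the other 3, with 16, 13 and 9 UMIs in 8, 7 and 7 type 2 gate cells and 0 UMIs in mature cells. All UMIs of Klk1 and Cox6a2, both plasmacytoid markers, lay in the 12 cells with Siglech.

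The type 2 gate held cells of 2 kinds by Siglech, a split made after the values were seen. A UMI of this lectin was present in 12 of 32 type 2 cells, at 1563 CPM, against 3 of 191 mature cells. The 12 cells held Bst2 at 3344 CPM, Ccr9, a gut-homing receptor, in each of them, and Ly6d at 1628 CPM, against 138 CPM of Bst2 and 0 UMIs of Ccr9 and Ly6d in the other 20. Ly6c2 stood at 1694 CPM in the 12 and 80.5 CPM in the 20, and Irf8 at 1172 and 46.0 CPM. All 10 listed plasmacytoid markers reached 20 CPM in one class or the other, and 0 were higher and 8 lower in mature cells. Set against the 20 cells alone, Bst2 had a log2 ratio of mature over type 2 of 0.11. The 20 cells without Siglech held more Cd74, 36813 CPM against 11725 CPM in the 12. Mgl2 stood at 552 CPM in the 20 (9 cells) and 21.7 CPM in the 12 (1 cell), and Ccl9 had a UMI in 16 of the 20 and in 0 of the 12. Lyz2 had a UMI in 18 of the 20 and 2 of the 12.

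**Figure D3:**
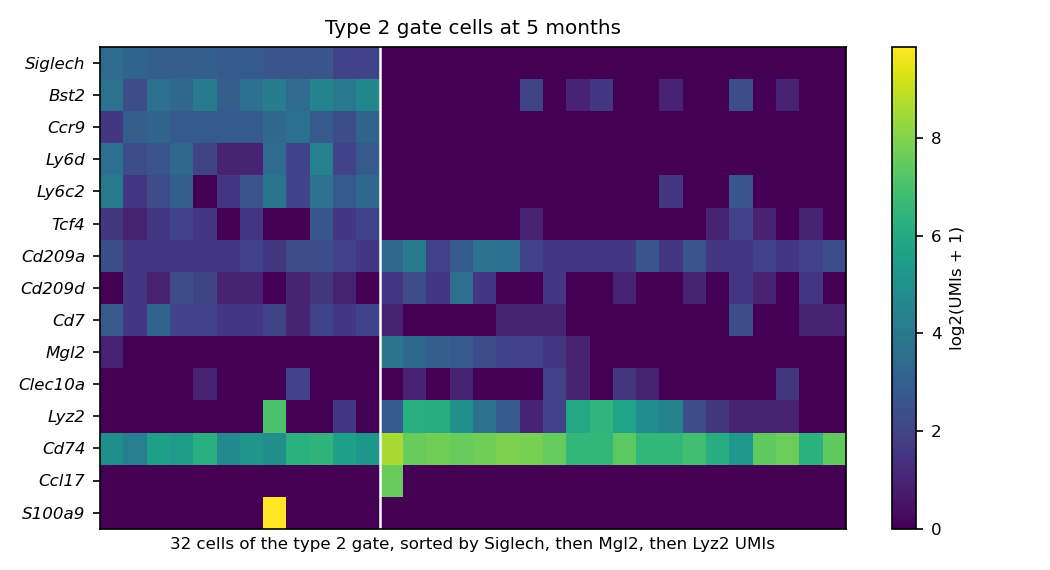
UMIs of 15 genes, as log2(UMIs + 1), in each of the 32 type 2 cells at 5 months, one column a cell. The white line divides the 12 cells with a Siglech UMI (left) from the 20 without. Bst2, Ccr9, Ly6d and Ly6c2 fill the left block, Mgl2 and most Lyz2 the right, and Ccl17 (187 UMIs) and S100a9 (927 UMIs) each sit in 1 cell.

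Transcription factors split both ways, with 3 of 22 higher in mature cells and 4 lower. Id2, needed for conventional dendritic cell development, stood at 2766 CPM in mature and 444 CPM in type 2 cells, and Nr4a3, a nuclear receptor tied to migration of dendritic cells, at 447 and 135 CPM. Spib and Tcf4, which serve plasmacytoid cells, stood at 11.2 and 44.8 CPM in mature cells, against 263 and 218 CPM in type 2 cells. Zeb2 stood at 60.9 and 196 CPM. Irf4, a factor of type 2 cells, had 6 of 191 mature and 7 of 32 type 2 cells with a UMI, at 11.2 and 52.6 CPM, within the intervals. Zbtb46 and Flt3, which mark conventional dendritic cells, leaned to mature cells at 60.9 and 92.9 CPM, against 22.6 and 52.6 CPM, also within them. Monocyte markers were 0 higher and 8 lower of 10, T or NK markers 0 higher and 1 lower of 7, and B or plasma markers 1 higher (Ebf1, 96.1 against 0 CPM) and 1 lower of 5. The listed markers Trbc1, Trbc2 and Ighm were left out of these counts, being genes listed for the 5 months library only. Trbc2 stood at 181 CPM in mature and 67.7 CPM in type 2 cells, while Trbc1 and Ighm were higher in type 2 cells. Of 16 oxidative phosphorylation genes and 14 glycolysis genes, 0 differed in either direction with intervals apart, although 2 glycolysis genes passed 2-fold.

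The mature gate at 5 months was also divided, by a UMI of Fscn1 and of Ccr7, again after the values were seen. Fscn1 and Ccr7 were both present in 123 cells, Ccr7 alone in 65 and Fscn1 alone in 3. Depth a cell had a median of 3303 UMIs in the 123 and 2413 in the 65. A single Fscn1 UMI parts these groups, so the division need not be one of cell kind. Ccl5 stood at 33322 CPM in the 123 and 2085 CPM in the 65, and Ccl22 at 775 and 61.9 CPM. Cacnb3 stood at 295 CPM in the 123 and 25.8 CPM in the 65, and Il12b at 388 and 10.3 CPM. Cd74 went the other way, 11277 CPM in the 123 and 19909 CPM in the 65, and Lyz2 stood at 369 and 2900 CPM. A B cell gene, Cd79b, had a UMI in 2 of the 123 and 14 of the 65 cells, and Ms4a1, which encodes CD20, in 2 and 9. The part of B cells in the Ccr7-only cells was not tested.

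Ccl5 and Cd74 ran opposite ways among the 191 mature cells, described here by a division at 10 Ccl5 UMIs that was also made after the values were seen. The 106 cells with 10 or more Ccl5 UMIs had a median of 8 Cd74 UMIs (quartiles 4 and 13), against 52 (23 and 97) in the 85 cells with fewer. Depth a cell had medians of 3059 and 2976 UMIs. Of the 106, 95 had both Fscn1 and Ccr7, 9 Ccr7 alone and 2 Fscn1 alone. Ccl22 had a UMI in 65 of the 106 and 9 of the 85 cells, Relb in 63 and 31, and Cacnb3 in 59 and 14. Mgl2 had a UMI in 0 of the 106 and 9 of the 85. Genes of other cell types moved with the same division. Lyz2 had a UMI in 8 of the 106 and 31 of the 85 cells, at 76.9 and 2421 CPM, Cd79b in 3 and 14 cells, and Ms4a1 in 2 and 9. Their part in the Cd74 levels was not tested.

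**Figure D4:**
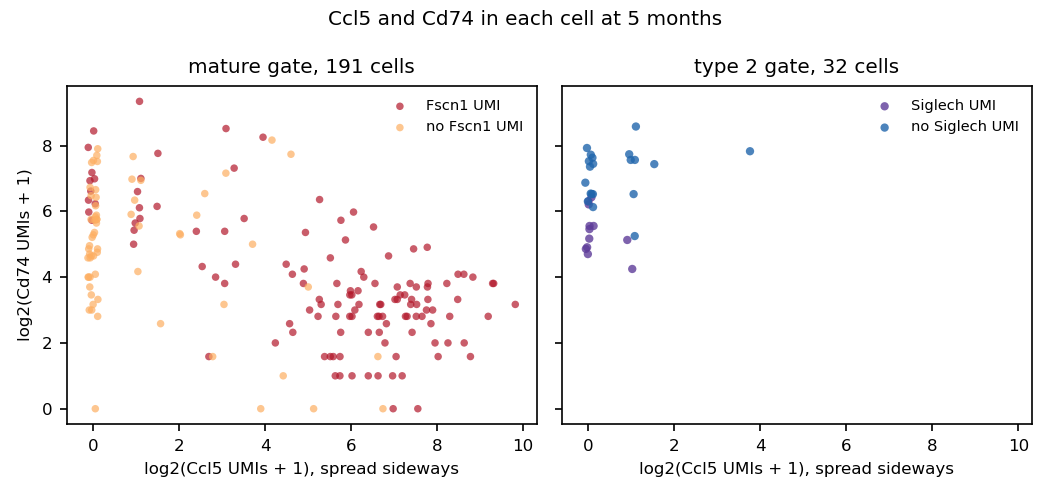
Ccl5 and Cd74 UMIs of each cell at 5 months, both as log2(UMIs + 1), in the mature gate (left, 191 cells, coloured by Fscn1) and the type 2 gate (right, 32 cells, coloured by Siglech). Ccl5 is moved sideways at random by a small amount. Mature cells with 10 or more Ccl5 UMIs have a median of 8 Cd74 UMIs, while mature cells with fewer have a median of 52.

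A mouse Langerhans cell protein, langerin (Cd207), stood at 200.2 CPM in mature cells, with UMIs in 42 of 191, against 30.1 CPM in type 2 cells, with UMIs in 2 of 32. Mfge8, a bridge to dying cells, stood at 359 and 15.0 CPM. In the 21 cells of the type 1 gate (2 or more UMIs of Xcr1 and Clec9a together, same other rules), Cd207 stood at 599.7 CPM. Ly75 stood at 54.5 CPM and Irf8 at 716 CPM in those 21 cells, against 111 and 573 CPM in mature cells. Interferon genes were 4 higher in mature cells and 2 lower of 13. Ifit1 and Rsad2 came from 5 and 9 mature cells, with 0 UMIs of either in type 2 cells.

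Tumour and 5 months cells of the mature gate were then compared over libraries, with 2 tumours against 1 library of 5 months. edgeR's quasi-likelihood test on the summed counts called 159 of 7184 genes at an adjusted p under 0.05 (2.21%), 74 higher in tumours (1.03%) and 85 lower (1.18%). The spread rests on 1 residual degree of freedom, and with factors from DESeq2's method 0 genes were called, with 1095 at an unadjusted p under 0.05. Class thresholds of 3 UMIs also left 0 calls, with 827 at an unadjusted p under 0.05. Nothing in the labels says that the tumours came from separate mice, so the spread may be technical. The tested sums were largely those of Fscn1-only cells. Of the tumour UMIs of the 74 higher genes, 97.4% lay in cells without Ccr7, and 72.0% of those of the 85 lower genes, against 85.3% over all genes. The 6 largest were Mgp, Serpinh1, 1500015O10Rik, Timp1, Tnc and Bgn, among which Mgp, Tnc and Bgn encode matrix proteins. Serpinh1, a collagen chaperone, stood at 918 CPM in tumour 1 and 211 CPM in tumour 2, against 0 UMIs at 5 months (with 3 UMIs as the limit, at least 191-fold in tumour 1 and at least 43.9-fold in tumour 2, adjusted p = 0.0236), and all of its tumour UMIs lay in cells without Ccr7. Mgp, matrix Gla protein, stood at 52.1 and 1225 CPM, against 0 UMIs (at least 10.8-fold in tumour 1 and at least 255-fold in tumour 2, adjusted p = 0.0492), with 93 of its 238 UMIs in tumour 2 in cells without Ccr7.

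The 6 smallest were H2-M2, Cd7, Apol7c, Rsad2, Ear2 and Csn2, each with 0 UMIs in both tumours. H2-M2, a non-classical class I gene, stood at 802 CPM at 5 months (at least 205-fold lower in tumour 1 and at least 52.0-fold lower in tumour 2, with 3 UMIs a library as the limit, adjusted p = 0.00396). Apol7c stood at 91.3 CPM (at least 23.4-fold lower in tumour 1 and at least 5.91-fold lower in tumour 2, adjusted p = 0.0177). Csn2 encodes a milk casein, and its 52.9 CPM at 5 months were as high in type 2 cells (52.6 CPM). Ccl5 stood at 151 CPM in tumour 1 and 494 CPM in tumour 2, against 24161 CPM at 5 months (log2 fold change -6.68, SE 0.59, adjusted p = 0.000519). Of 17 mature markers tested, 0 were higher and 7 lower, with a median log2 fold change of -3.08, against 0.13 over all genes tested. Of 14 class I genes, 3 were lower (B2m, H2-D1 and H2-K1), and of 9 fibroblast or endothelial markers 3 were higher (Col1a1, Col1a2 and Col3a1), while 0 of 16 NF-kB genes were called. The mixture of cells in the tumour gate cannot be told apart from a difference within mature cells in these tests.

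Cells with a Ccr7 UMI give a closer view, as a description chosen after the values were seen. There were 9 such cells in tumour 1, 13 in tumour 2 and 188 at 5 months. Ccl22 stood at 6357 CPM in tumour 1 (7 of 9 cells) and 259 CPM in tumour 2 (4 of 13), against 551 CPM at 5 months. Ccl17 stood at 8689.6 CPM in tumour 1 and 395 CPM in tumour 2, against 162 CPM at 5 months. For both genes tumour 1 was high, and for Ccl22 the 5 months value lay between those of the tumours. Ccl5 stood at 1279 and 1083 CPM in the tumours, against 23511 CPM at 5 months, and both tumours lay below the 5 months interval. These Ccr7+ sets were still mixed. Fscn1 was also present in 4 of the 9 cells of tumour 1 and 3 of the 13 of tumour 2, against 123 of the 188 at 5 months. At 5 months, Ccl5 was higher in the cells with both genes, and the part of this make-up in the Ccl5 levels was not tested.

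Cd86 stood at 545 CPM in tumour 1 and 271 CPM in tumour 2, against 220.4 CPM at 5 months. Relb and Cacnb3 had overlapping intervals in the 3 libraries, at 132 and 150 CPM in tumour 1 and 169 and 102 CPM in tumour 2, against 248 and 211 CPM at 5 months. Cd274 stood at 188 and 90.3 CPM in the tumours, against 61.6 CPM at 5 months. Mgl2 was at 696 CPM in tumour 1 (6 of 9 cells) and had 0 UMIs in tumour 2, against 32.4 CPM at 5 months. Lyz2 stood at 715 and 5505 CPM, against 1164 CPM. Monocyte markers summed to 2426 CPM in tumour 1 and 8969 CPM in tumour 2, against 1710 CPM at 5 months. Neutrophil markers summed to 263 and 8032 CPM, against 21.1 CPM. In tumour 2, most neutrophil marker UMIs lay in a barcode with 215 S100a9 and 274 S100a8 UMIs and another with 83 and 71. The part of monocytes and neutrophils in these levels was not tested.

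**Figure D5:**
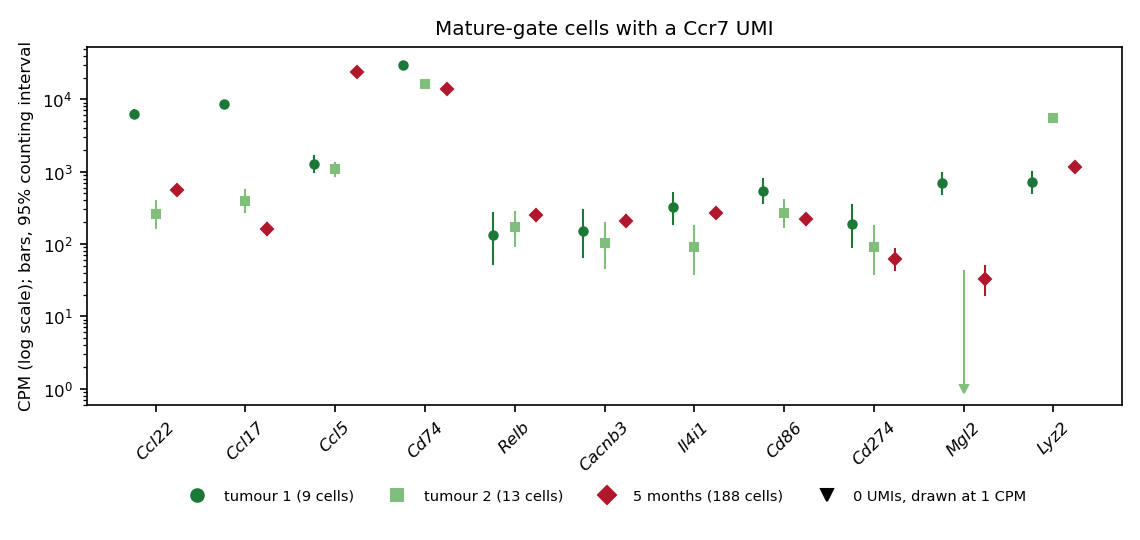
Summed level (CPM, log scale) of 11 genes in mature-gate cells with a Ccr7 UMI, in tumour 1 (9 cells), tumour 2 (13 cells) and 5 months (188 cells), with 95% Poisson intervals. Ccl5 stands at 1279 and 1083 CPM in the tumours, below 5 months, and Ccl22 and Ccl17 are highest in tumour 1, at 6357 and 8689.6 CPM.

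The 5 cells past both thresholds at 5 months held 877 CPM of Cd209a and 950.1 CPM of Ccr7, with 1 UMI of Fscn1. Their Cd74 stood at 44617 CPM and their Ccl5 at 365 CPM. Mgl2 had a UMI in 4 of the 5, at 767 CPM, and Cacnb3 in 0. Values of Ccl5, Cacnb3 and Mgl2 in these cells were closer to those of the type 2 gate (173, 0 and 368 CPM) than of the mature gate (24161, 219 and 32.0 CPM). Some mature markers were counted in them too. Tbc1d4 had 3, 1 and 2 UMIs in different cells of the 5, against 1 UMI in the whole type 2 gate. Il4i1 had 3 UMIs in a single cell of the 5.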

How the data were processed

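Single cells were profiled on the 10x Chromium platform (3' v2), and the authors deposited whole-number UMI counts per gene and barcode. Cell Ranger and the mouse builds mm10 and GRCm38 are named per the submitters' processing notes; their versions and settings were not stated there. The members and gene lists were chosen with earlier results of these data known.

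Barcodes kept had a median of 7009.5 UMIs in tumour 1, 6441 in tumour 2 and 2176.5 at 5 months. The 27998 genes shared by the libraries were used; 694 genes listed for 5 months only were left out. Counts were summed per library and class. Scrublet in scanpy 1.11.5 marked 0 barcodes in tumour 1, 8 in tumour 2 and 0 at 5 months by its own threshold, so doublets were kept, and removing the highest scores was an alternative.

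No type 2 cell was found in the tumours, so the planned edgeR test of mature against type 2 cells, the type 2 tumour test and the interaction could not be run, and the 2-fold rule planned for 1 library was used. The requirement that 95% Poisson intervals lie apart was added after the fold rule was tested on simulated data. Tumour and 5 months sums were tested with edgeR 4.0.16 (quasi-likelihood, TMM factors, filterByExpr, Benjamini-Hochberg adjustment over all genes tested); DESeq2 1.42.0 was an alternative. Scripts were tested on simulated data. Genes named were the 12 largest and 12 smallest ratios at 5 months, the 6 largest and 6 smallest tumour fold changes, and members of each list; with no p at 5 months, list members were taken by size of ratio or as defining genes, and further members described were chosen after their values were seen.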

Additional observations from a re-analysis of the deposited data

How the results depend on the processing

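No type 2 cell was found in either tumour without thinning, so each mature against type 2 value rests on 32 type 2 cells of 1 library, and the depth of 132981 UMIs limits genes under about 20 CPM. The 2030 genes past 2-fold became 6765 with no floor and 447 with a floor of 100 CPM; the other 11 alternatives gave 1953 to 2546. Genes higher in mature cells outnumbered lower ones with no floor (4379 and 2386) and without the highest cell of each gene (1082 and 871). Of the values of 104 named genes under 13 alternatives, 1227 stayed, 105 moved and 20 changed sign. Without the type 2 cells with Siglech, the log2 ratios of Bst2, Ccr9, Ly6d and Siglech were 0.11, 5.41, 5.91 and 4.45. The sign change of Siglech itself was fixed by leaving those cells out. In the same setting the log2 ratio of Chil3 was 1.38, and those of Ngp, S100a8 and S100a9 were 2.07. Without the barcode richest in S100a9, Chil3 was again 1.38 and the other 3 were 2.07. With thresholds of 3 UMIs, Chil3 was 1.52 and Ngp, S100a8 and S100a9 were 2.25. Without the highest cell of each gene, Ccl17 was 7.13 and Ngp, S100a8 and S100a9 were 1.43. The 159 genes called in tumours against 5 months were 0 with DESeq2 size factors (1095 at an unadjusted p under 0.05), 99 by DESeq2's Wald test, 492 with no filter, 15 with doublets removed, 0 with thresholds of 3 (827 at an unadjusted p under 0.05), 3 with the cells past both thresholds counted as mature, 111 with cells thinned to 2000 UMIs and 37 in Ccr7+ cells. Of the values of the 12 genes named there, 54 stayed, 1 moved and 50 kept their direction but missed the threshold. The cause was not tested. The mature share at 5 months was 90.3% with thresholds of 3 UMIs and 84.7% to 86.0% under the others. With cells thinned before the rule, tumour 1 had 10 mature cells of 11 (90.9%), so that 1 cell passed as type 2; other tumour values were 100%. Alternatives on Siglech, Ccr7, S100a9, single cells, TMM factors at 5 months and the 100 CPM floor were chosen after seeing the data. Tumour 1 kept 6 mature cells with no C1q UMI, under the minimum of 10 cells, so that test was not run; the test in Ccr7+ cells was run although tumour 1 holds 9. Leaving out a tumour leaves no residual degrees of freedom, so only values were computed. No paired analysis was possible because only 1 library holds both classes.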

Other observations

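The library from 2 weeks after injection held 17 cells in the dendritic gate, of which 2 passed the mature threshold and 0 the type 2 threshold. These 2 barcodes had 7695 UMIs together, with 11 UMIs of Ccr7, 228 of Cd74, 22 of Ccl22 and 20 of Il12b.

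Some immune receptor genes were listed for the 5 months library only and so entered no comparison. Igkc, an immunoglobulin light chain, stood at 641 CPM in mature and 556 CPM in type 2 cells. Ighm stood at 136 CPM in mature and 338 CPM in type 2 cells. Trbc2 stood at 181 and 67.7 CPM, Trbc1 at 76.9 and 165 CPM, and Trac at 35.2 and 45.1 CPM.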
